A study of Sus scrofa with 6 samples.

Results

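Substrate receptors are the proteins that let a ubiquitin ligase recognise what it will mark. Those of longissimus dorsi, a long back muscle, were examined here in Wannanhua pigs, a local Chinese breed, and Yorkshire pigs, a lean commercial breed. Members were taken by gene symbol, as every row of the deposited table whose Ensembl identifier maps to a symbol beginning FBXO, FBXL, FBXW, KLHL, ASB or TRIM and continuing with a digit. FBXO32 and TRIM63, the best known atrophy ligases, were set aside by the rule. It gave 109 of the 17627 genes in the table, with 23 FBXO, 11 FBXL, 6 FBXW, 28 KLHL, 13 ASB and 28 TRIM genes. Messenger RNA was sequenced in 3 Wannanhua and 3 Yorkshire libraries, all labelled 5 months of age and all without a stated treatment, genotype or sex. The series' design text speaks of piglets instead. Each library carries its own replicate number, but no label says that the libraries came from separate animals, so p-values rest on spread between libraries that may be technical.

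Ubiquitin is passed from an activating enzyme to a conjugating enzyme and then, with the help of a ligase, to the protein to be marked. The cullin ligases are modular. F-box proteins (FBXL with leucine-rich repeats, FBXW with WD repeats and FBXO with other domains) dock on the adaptor SKP1 and the scaffold CUL1. KLHL proteins bind CUL3 through a BTB domain and their substrates through kelch repeats. ASB proteins carry ankyrin repeats and a SOCS box, through which they bind elongins B and C and CUL5. TRIM proteins need no cullin, since most carry the RING domain that engages the conjugating enzyme in the same chain. In muscle these receptors are known for the turnover of sarcomere proteins and insulin signalling proteins, and for some, such as KLHL40, for holding proteins in place instead of removing them.

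The libraries held 16385602 to 21056699 recovered reads. The first principal component, with 45.7% of the variance, had the breeds on opposite sides, with Wannanhua 3 less far from Yorkshire than Wannanhua 1 and 2. Yorkshire 1 stood apart from the other Yorkshire libraries on the second, with 23.1%. Contractile genes of muscle were abundant in every library. The 4 of 8 slow-fibre markers with a row summed to 38305, 41054 and 10108 FPKM in Wannanhua 1, 2 and 3, against 17014, 5577 and 9978 in Yorkshire 1, 2 and 3. The 5 of 11 fast-fibre markers summed to 19644, 11067 and 34770 FPKM in Wannanhua 1, 2 and 3, against 51577, 51594 and 51308 in Yorkshire 1, 2 and 3. Markers of other cells were low by comparison, with the 2 of 5 adipocyte markers summing to 10.2 to 13.9 FPKM in Wannanhua and 1.29 to 12.0 in Yorkshire, and the 3 of 5 leukocyte markers to 5.02 to 6.20 and 4.94 to 7.78. The 2 of 4 nerve markers summed to 7.73 to 11.6 FPKM in Wannanhua and 0.853 to 5.53 in Yorkshire, without overlap, and their part in the results was not tested. The 3 of 5 endothelial markers summed to 35.1 to 52.1 and 39.1 to 47.4 FPKM, and the 4 of 5 fibroblast markers to 260 to 336 and 283 to 647. None of the marker genes with a row was at 0 in every library, and the myosin heavy chains of the main fibre types were not analysed here. In bulk tissue, fewer cells of a type and less RNA per cell cannot be told apart, in these sums and in the levels that follow.

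TRIM68 was the 1 member past the threshold between breeds. FBXO32, set aside by the rule, also passed and is given below as context. TRIM68, known in human cells as a coactivator of the androgen receptor, stood 4.25-fold higher in Wannanhua by group means. Of the 109 members, 85 reached 1 FPKM (fragments scaled to transcript length and library size) in at least 3 libraries and were tested with limma, adjusted over 11791 genes at a threshold of 0.05. TRIM68 made up 1.18% of these, against 3.05% called among all tested genes, of which 1.76% were higher and 1.29% lower in Wannanhua. A limma p under 0.05 without adjustment was reached by 19 members, or 22.4%, against 22.1% of all tested genes. Of them 16 were higher and 3 lower in Wannanhua, against 14.6% and 7.53% of all tested genes. Libraries of the breeds did not overlap in 20 members higher in Wannanhua, 23.5% of those tested against 20.3% of all tested genes. They did not overlap in 2 members lower in Wannanhua, 2.35% against 9.63%.

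Differences were small in most members. The log2 fold change, Wannanhua minus Yorkshire on log2(FPKM + 1), on which changes at low values come out smaller, was under 0.5 in size in 67 of the 85 (78.8%, against 72.6% of all tested genes). It was 1 or more in 7 (8.24%, against 6.98%). Its median over the tested members was 0.09, with 55 values above 0 (64.7%, against 62.6% of all tested genes) and 30 below, and over all tested genes it was 0.12. After quantile normalization these medians were -0.01 and 0.00, so that neither gives a direction. The 95% interval of the difference lay within 1 log2 unit on both sides of 0 in 58 of the 85. A test on recovered reads with edgeR called TRIM68 alone among 96 members (1.04%, against 2.87% of all genes it tested). DESeq2 on the same reads called 9 of 96 (9.38%, against 9.58%), 7 higher and 2 lower in Wannanhua, against 4.78% and 4.80% of all genes. Limma without Wannanhua 3 called TRIM68, TRIM24 and ASB18, all higher, where 4.37% of all genes were called, 2.33% higher and 2.04% lower.

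**Figure D1:**
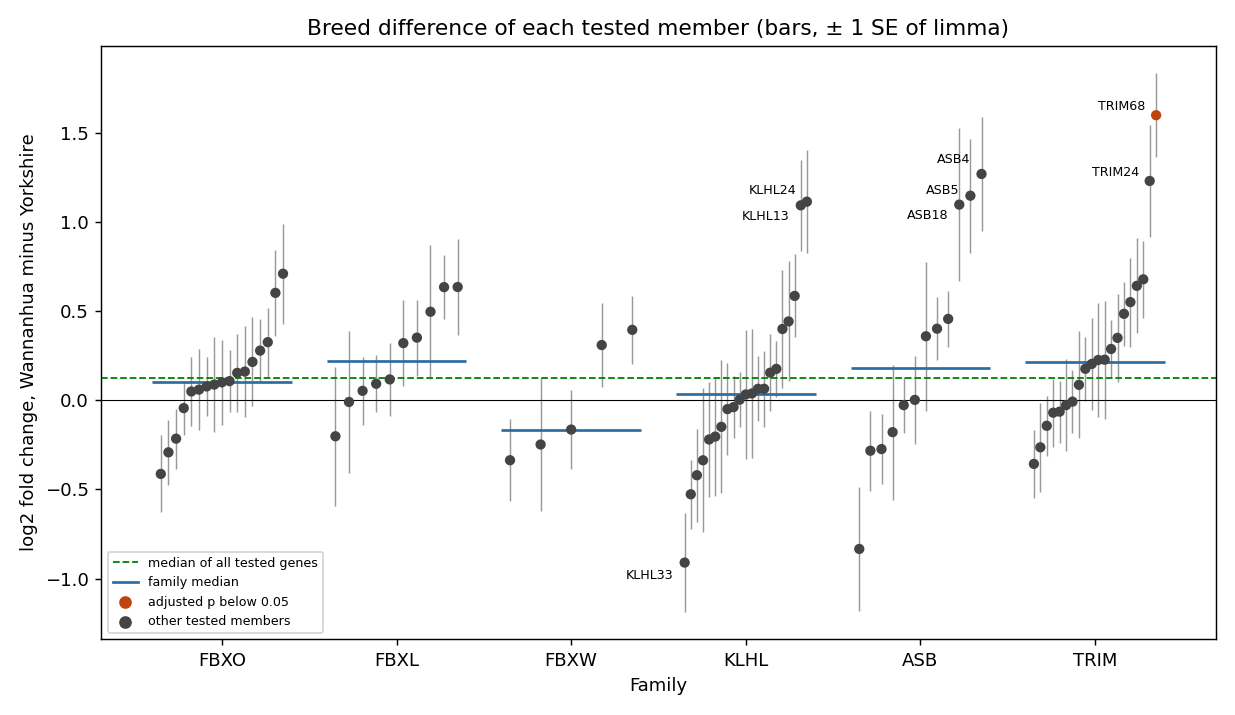
Log2 fold change of each of the 85 tested members, Wannanhua minus Yorkshire on log2(FPKM + 1), by family, with bars of 1 limma standard error. TRIM68, in red at 1.60, is the member past the adjusted threshold, blue lines are family medians between -0.16 and 0.22, and the dashed green line is the median of all tested genes at 0.12.

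Among the members, a few receptors stood at high levels and most at low ones. Levels in FPKM are per length of transcript and are set side by side here, though the transcript lengths used were not checked. The ranking leaves out TRIM63, at 259 FPKM over all libraries, and FBXO32. It also leaves out any receptor without a matched row, which includes 12 chosen by role. Of the 109 members, 31 averaged 10 FPKM or more over the 6 libraries, 5 averaged 100 FPKM or more, and the 10 most abundant held 63.5% of the summed FPKM. By the mean over all libraries these 5 were ASB2 at 185 FPKM, TRIM72 at 174, ASB5 at 165, KLHL31 at 141 and FBXO40 at 128. Apart from ASB5, each has a known role in striated muscle. ASB2 directs filamin to destruction, TRIM72 (also called MG53) patches torn muscle membranes, KLHL31 is needed for sarcomere structure in mice, and FBXO40 targets the insulin receptor substrate IRS1 in mouse muscle. The means of ASB2 and TRIM72, next to each other in that order, differed by less than the spread of ASB2 between libraries. The order was not that of each breed, since ASB5 averaged 226 FPKM in Wannanhua, the highest of the 5, and 104 FPKM in Yorkshire, the lowest.

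**Figure D2:**
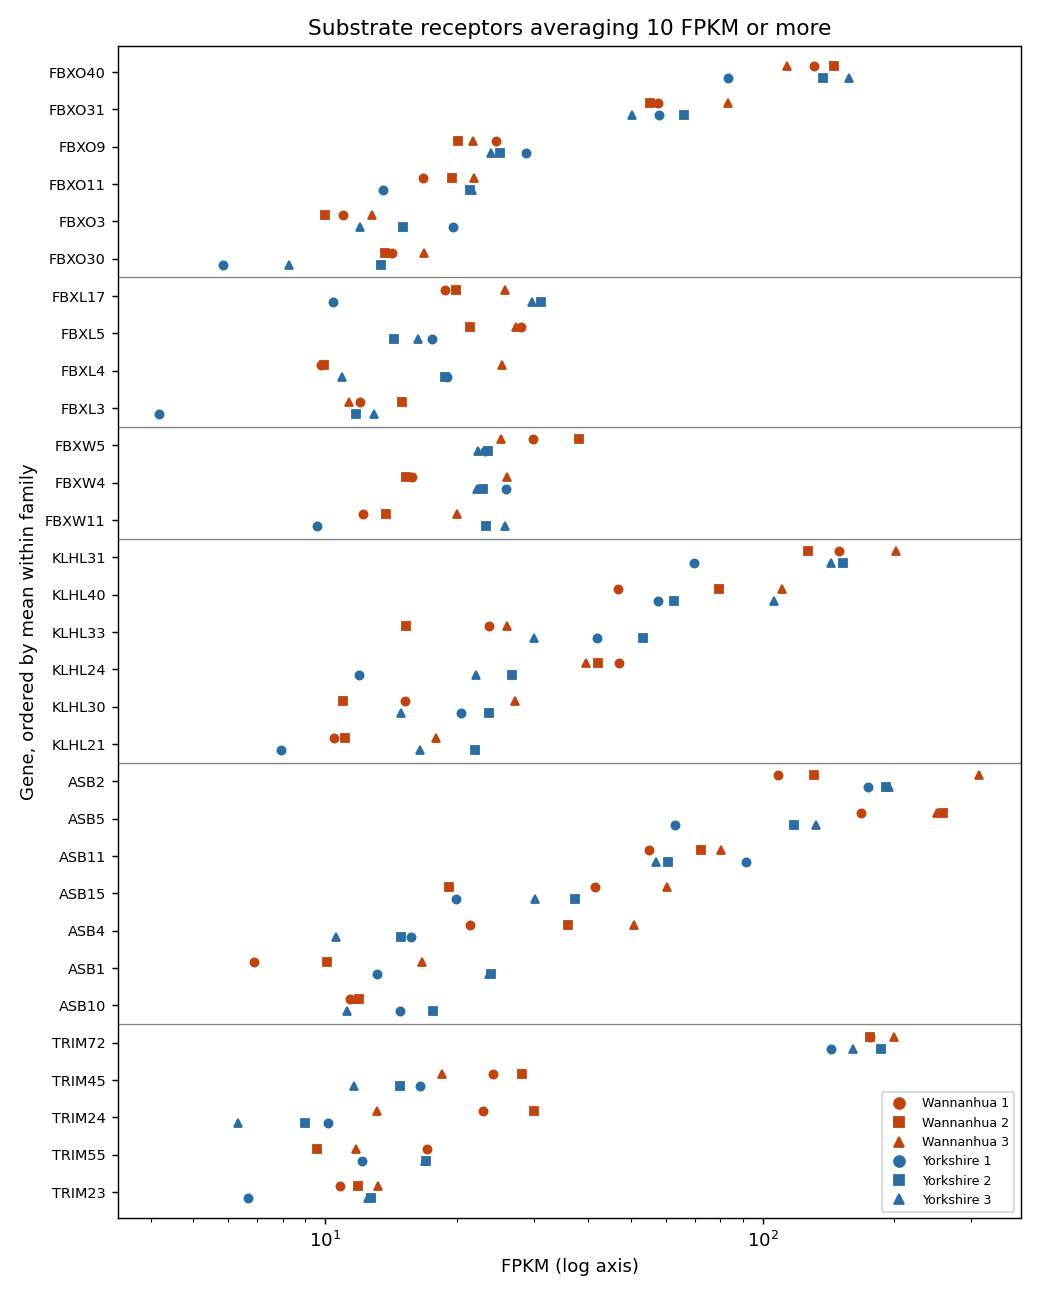
FPKM on a log axis in each library for the 31 members that averaged 10 FPKM or more, Wannanhua (red) above Yorkshire (blue), ordered by mean within each family. ASB2, TRIM72, ASB5, KLHL31 and FBXO40 averaged 128 to 185 FPKM, and the breeds overlap in most rows.

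Among F-box proteins of the FBXO family, with FBXO32 set aside, 17 of 23 were tested and 0 passed in limma or edgeR. Their median log2 fold change was 0.10. An unadjusted limma p under 0.05 was reached by 2 of 17, both higher in Wannanhua, against 14.6% of all tested genes. FBXO40 (ENSSSCG00000011885) made up 40.4% of the family's summed FPKM, with FBXO32 left out of the sum. It stood at 131, 145 and 114 FPKM in Wannanhua 1, 2 and 3, against 83.3, 138 and 157 FPKM in Yorkshire 1, 2 and 3. The breeds overlapped, and Yorkshire 1 was the lowest library. The log2 fold change came to 0.09 ± 0.26 (SE; limma adjusted p = 0.876), with a 95% interval from -0.53 to 0.71. FBXO31 (ENSSSCG00000002654), which marks cyclin D1 in human cells, averaged 65.4 ± 15.6 FPKM in Wannanhua and 58.0 ± 7.91 FPKM in Yorkshire (SD, n = 3 each). FBXO9 (ENSSSCG00000002629), which tags adaptor proteins of the kinase mTOR in human cells, averaged 22.2 ± 2.30 FPKM in Wannanhua and 25.9 ± 2.54 FPKM in Yorkshire. FBXO3 (ENSSSCG00000013308) averaged 11.3 ± 1.43 FPKM in Wannanhua and 15.6 ± 3.82 FPKM in Yorkshire, with overlap between breeds.

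FBXO30 and FBXO21 are both induced in wasting mouse muscle, where they are also called MUSA1 and SMART. FBXO30 (ENSSSCG00000004121) stood at 14.2, 13.8 and 16.8 FPKM in Wannanhua 1, 2 and 3, against 5.84, 13.5 and 8.28 FPKM in Yorkshire 1, 2 and 3. All Wannanhua libraries lay above all Yorkshire libraries, by a narrow margin over Yorkshire 2, but the difference did not pass the threshold (log2 fold change 0.71 ± 0.28 SE; limma adjusted p = 0.196). FBXO21 (ENSSSCG00000009858) stood at 11.7, 15.2 and 8.11 FPKM in Wannanhua 1, 2 and 3, against 6.27, 7.14 and 8.07 FPKM in Yorkshire 1, 2 and 3. The breeds were separate only by the gap between Wannanhua 3 and Yorkshire 3, and the gene did not pass (log2 fold change 0.60 ± 0.24 SE; limma adjusted p = 0.202). For context, FBXO32 (atrogin-1) averaged 169 ± 68.0 FPKM in Wannanhua and 29.3 ± 8.17 in Yorkshire (adjusted p = 0.0295 in limma), and TRIM63 (MuRF1) 331 ± 104 and 187 ± 64.6 (0.208).

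The steadiest of the 85 tested members was FBXO7, an F-box protein in which human mutations cause a form of parkinsonism, named here after its values were seen. It stood at 8.98, 8.73 and 8.58 FPKM in Wannanhua 1, 2 and 3, against 9.09, 8.64 and 9.48 FPKM in Yorkshire 1, 2 and 3, a coefficient of variation of 3.81% over the 6 libraries. Its 95% interval for the log2 fold change ran from -0.40 to 0.31. TRIM72, with a far higher level, varied by 11.4%. At the other end stood ASB18 at 92.3%, KLHL13 at 74.8% and TRIM68 at 74.6%.

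In the FBXL family 10 of 11 members were tested, 0 passed in limma or edgeR, and the median log2 fold change was 0.22. An unadjusted p under 0.05 was reached by 2, both higher in Wannanhua, where 14.6% of all tested genes were. FBXL17 (ENSSSCG00000014190), which in human cells checks the pairing of BTB domains such as those of KLHL proteins, had the highest mean over all 6 libraries, though FBXL5 lay above it in each Wannanhua library and in Yorkshire 1. FBXL17 stood at 18.8, 19.9 and 25.7 FPKM in Wannanhua 1, 2 and 3, against 10.4, 31.2 and 29.7 FPKM in Yorkshire 1, 2 and 3. Yorkshire 1 was the lowest library and the other Yorkshire libraries the highest, which gave a log2 fold change of -0.01 ± 0.40 (SE). FBXL5 (ENSSSCG00000008740), the iron-sensing receptor that removes iron regulatory proteins, stood at 28.1, 21.5 and 27.3 FPKM in Wannanhua 1, 2 and 3, against 17.6, 14.3 and 16.3 FPKM in Yorkshire 1, 2 and 3. The breeds did not overlap, and the difference did not pass (log2 fold change 0.63 ± 0.18 SE; limma adjusted p = 0.102). FBXL4 (ENSSSCG00000004347), a mitochondrial protein whose loss in humans depletes mitochondrial DNA, stood at 9.80, 9.94 and 25.4 FPKM in Wannanhua 1, 2 and 3, against 19.0, 18.8 and 11.0 FPKM in Yorkshire 1, 2 and 3. Wannanhua 3 was the highest of all libraries and the other Wannanhua libraries the lowest. FBXL20 (ENSSSCG00000017506) averaged 4.35 ± 0.974 FPKM in Wannanhua and 2.52 ± 1.03 FPKM in Yorkshire (limma adjusted p = 0.219). Its breeds were separate only by the gap between Wannanhua 1 at 3.47 FPKM and Yorkshire 2 at 3.46 FPKM.

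In the FBXW family 5 of 6 members were tested, 0 passed in limma or edgeR and 0 had an unadjusted limma p under 0.05. The median log2 fold change was -0.16 with all libraries and 0.0036 without Wannanhua 3. FBXW5 (ENSSSCG00000005839) averaged 31.0 ± 6.44 FPKM in Wannanhua and 23.1 ± 0.623 FPKM in Yorkshire (SD, n = 3 each). Its Wannanhua libraries lay above all Yorkshire libraries (limma adjusted p = 0.272). FBXW4 (ENSSSCG00000010566) stood at 15.8, 15.3 and 26.0 FPKM in Wannanhua 1, 2 and 3, against 26.0, 22.9 and 22.2 FPKM in Yorkshire 1, 2 and 3, so that Wannanhua 3 lay with Yorkshire. FBXW11 (ENSSSCG00000023307), the beta-TrCP protein that recognises phosphorylated beta-catenin and inhibitors of NF-kappa-B, stood at 12.2, 13.8 and 20.0 FPKM in Wannanhua 1, 2 and 3, against 9.58, 23.4 and 25.8 FPKM in Yorkshire 1, 2 and 3. Yorkshire 1 was again the lowest. FBXW7 (ENSSSCG00000020879), which marks cyclin E, MYC and NOTCH, averaged 10.6 ± 2.85 FPKM in Wannanhua and 8.26 ± 1.32 FPKM in Yorkshire, with overlap.

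Of the KLHL proteins, the receptors of CUL3, 21 of 28 were tested, with a median log2 fold change of 0.03 that ran from -0.11 to 0.14 with single libraries left out. None passed in limma or edgeR. An unadjusted limma p under 0.05 was reached by 5 of 21 (3 higher and 2 lower), against 22.1% of all tested genes (14.6% and 7.53%). DESeq2 called KLHL13, KLHL24, KLHL33 and KLHL3, 4 of 25, against 9.58% of all genes. KLHL31 (ENSSSCG00000001487) stood at 149, 127 and 202 FPKM in Wannanhua 1, 2 and 3, against 69.5, 152 and 143 FPKM in Yorkshire 1, 2 and 3, a log2 fold change of 0.44 ± 0.34 (SE; limma adjusted p = 0.477). KLHL40 (ENSSSCG00000011286), which stabilises nebulin and leiomodin 3 in thin filaments and is mutated in human nemaline myopathy, stood at 46.8, 79.3 and 111 FPKM in Wannanhua 1, 2 and 3, against 57.6, 62.7 and 106 FPKM in Yorkshire 1, 2 and 3. Each breed thus spanned about the same range, and the 95% interval of the log2 fold change ran from -0.81 to 0.88. KLHL30 (ENSSSCG00000026600) averaged 17.8 ± 8.41 FPKM in Wannanhua and 19.7 ± 4.43 FPKM in Yorkshire. KLHL21 (ENSSSCG00000003379), known for placing the mitotic kinase Aurora B, averaged 13.2 ± 4.16 and 15.5 ± 7.11 FPKM.

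KLHL24 and KLHL33 stood at like mean levels over all libraries and had breeds without overlap in opposite directions. KLHL24 (ENSSSCG00000011775), in which human mutations cause fragile skin and cardiomyopathy, stood at 47.0, 42.1 and 39.4 FPKM in Wannanhua 1, 2 and 3, against 11.9, 26.7 and 22.1 FPKM in Yorkshire 1, 2 and 3. Wannanhua lay above Yorkshire in all libraries, with a log2 fold change of 1.11 ± 0.29 (SE) that did not pass (limma adjusted p = 0.0840). KLHL33 (ENSSSCG00000002140) stood at 23.7, 15.3 and 26.0 FPKM in Wannanhua 1, 2 and 3, against 41.8, 53.3 and 30.0 FPKM in Yorkshire 1, 2 and 3. Wannanhua lay below Yorkshire in all libraries, with a log2 fold change of -0.91 ± 0.28 (SE; limma adjusted p = 0.120). KLHL25 (ENSSSCG00000002258), which in human cells targets ATP citrate lyase and a repressor of translation, was the other tested member with all Wannanhua libraries below Yorkshire, at 1.89 ± 0.495 FPKM in Wannanhua and 3.14 ± 0.400 FPKM in Yorkshire, by a limma adjusted p of 0.170.

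KLHL9 and KLHL13 act as a pair with CUL3 on Aurora B in dividing human cells. KLHL13 (ENSSSCG00000012637) stood at 2.69, 5.02 and 2.26 FPKM in Wannanhua 1, 2 and 3, against 0.767, 1.16 and 0.956 FPKM in Yorkshire 1, 2 and 3. It rested on 58, 113 and 47 reads in Wannanhua 1, 2 and 3, against 16, 27 and 23 reads in Yorkshire 1, 2 and 3, and 1 Yorkshire library reached the filter. The breeds did not overlap (log2 fold change 1.09 ± 0.26 SE), and the limma adjusted p of 0.0686 was the smallest of any member after TRIM68. KLHL9 (ENSSSCG00000005150), named after its values were seen, averaged 5.85 ± 0.421 FPKM in Wannanhua and 3.69 ± 1.28 FPKM in Yorkshire, at a limma adjusted p of 0.199. KLHL3 (ENSSSCG00000014321), the receptor of WNK kinases in the kidney, fell under the filter at 0.163, 0.318 and 0.140 FPKM in Wannanhua 1, 2 and 3, against 0.123, 1.38 and 1.18 FPKM in Yorkshire 1, 2 and 3. Yorkshire 1 lay below all Wannanhua libraries and the other Yorkshire libraries above them.

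ASB proteins, the receptors of CUL5, had the highest summed level of any family over matched rows, when FBXO32 and TRIM63 were left out. Receptors without a matched row, KLHL41, TRIM54 and ASB12 among them, are missing from these sums, so the order of families may differ with them. The family's 3 most abundant members, ASB2, ASB5 and ASB11, made up 79.3% of the ASB sum. Of 13 members 12 were tested, with a median log2 fold change of 0.18. None passed in limma or edgeR. An unadjusted limma p under 0.05 was reached by 5 of 12 (4 higher and 1 lower), against 22.1% of all tested genes (14.6% and 7.53%). DESeq2 called ASB4, ASB5 and ASB18, 3 of 13, against 9.58% of all genes. ASB2 (ENSSSCG00000002467) stood at 108, 131 and 313 FPKM in Wannanhua 1, 2 and 3, against 174, 191 and 194 FPKM in Yorkshire 1, 2 and 3. The Wannanhua libraries fell on both sides of the Yorkshire ones, whose spread was narrow, at a log2 fold change of -0.18 ± 0.38 (SE; limma adjusted p = 0.815). The change was 0.12 without Wannanhua 1 and -0.64 without Wannanhua 3. ASB11 (ENSSSCG00000012133) averaged 69.2 ± 12.9 FPKM in Wannanhua and 69.8 ± 18.9 FPKM in Yorkshire (SD, n = 3 each).

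ASB5 and ASB4 had the clearest separation in the family. ASB5 (ENSSSCG00000030395) stood at 168, 258 and 251 FPKM in Wannanhua 1, 2 and 3, against 63.1, 118 and 132 FPKM in Yorkshire 1, 2 and 3. All Wannanhua libraries lay above all Yorkshire libraries, and the log2 fold change of 1.15 ± 0.32 (SE) did not pass (limma adjusted p = 0.0996). ASB4 (ENSSSCG00000015333), studied mainly in blood vessels and the hypothalamus of mice, stood at 21.5, 36.0 and 50.9 FPKM in Wannanhua 1, 2 and 3, against 15.7, 14.9 and 10.6 FPKM in Yorkshire 1, 2 and 3. The breeds were again separate, at a log2 fold change of 1.27 ± 0.32 (SE; limma adjusted p = 0.0791). Of the endothelial markers, PECAM1 averaged 31.8 ± 5.06 FPKM in Wannanhua and 34.4 ± 3.20 FPKM in Yorkshire, and TEK 6.88 ± 2.32 and 4.87 ± 1.32 FPKM. Their part in the ASB4 result was not tested.

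ASB18 (ENSSSCG00000016318) stood at 4.41, 8.84 and 1.73 FPKM in Wannanhua 1, 2 and 3, against 1.11, 1.57 and 1.74 FPKM in Yorkshire 1, 2 and 3. These rested on 68, 125 and 23 reads in Wannanhua 1, 2 and 3, against 14, 22 and 27 reads in Yorkshire 1, 2 and 3. Wannanhua 1 and 2 were high, and Wannanhua 3 lay within Yorkshire, as it did for the slow-fibre markers. The part of fibre type in this pattern was not tested. The gene did not pass with all libraries (log2 fold change 1.10 ± 0.43 SE; limma adjusted p = 0.192), and passed without Wannanhua 3. ASB1 (ENSSSCG00000016340), singled out after its values were seen, had an unadjusted p under 0.05 in the lower direction. It stood at 6.90, 10.1 and 16.7 FPKM in Wannanhua 1, 2 and 3, against 13.2, 24.0 and 23.7 FPKM in Yorkshire 1, 2 and 3. ASB15 (ENSSSCG00000016606) averaged 40.3 ± 20.6 FPKM in Wannanhua and 29.1 ± 8.69 FPKM in Yorkshire, and ASB10 (ENSSSCG00000029241) 11.7 ± 0.294 and 14.6 ± 3.23 FPKM, both with overlap. ASB3 (ENSSSCG00000008415) did not overlap, at 6.41 ± 0.305 FPKM in Wannanhua and 4.42 ± 0.432 FPKM in Yorkshire, at a limma adjusted p of 0.156.

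**Figure D3:**
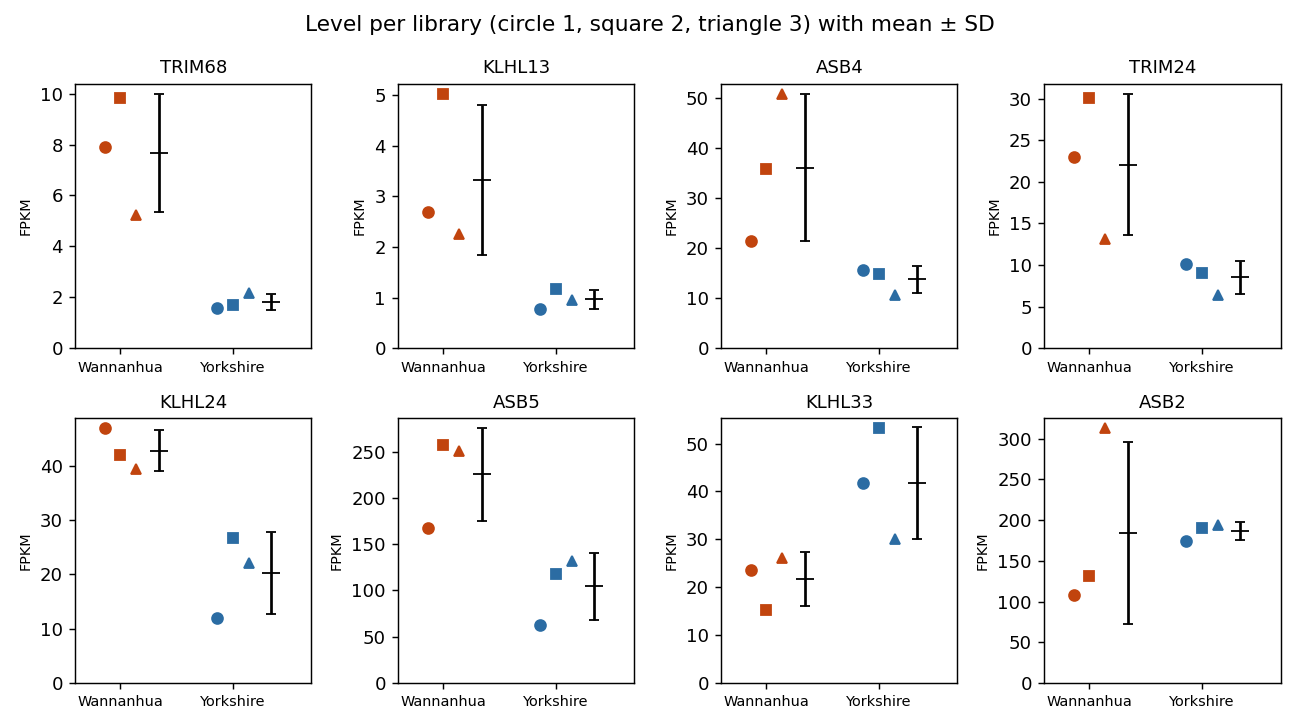
FPKM per library, from 0, for 8 members, with the mean ± SD of each breed (n = 3) at its right and Wannanhua left of Yorkshire. TRIM68, KLHL13, ASB4, TRIM24, KLHL24 and ASB5 lie higher in all Wannanhua libraries, KLHL33 lies lower in all, and ASB2 spans 108 to 313 FPKM in Wannanhua around a narrow Yorkshire range.

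Of the TRIM proteins 20 of 28 were tested, with a median log2 fold change of 0.21. TRIM68 passed. An unadjusted limma p under 0.05 was reached by 5 of 20, all higher in Wannanhua, against 22.1% of all tested genes (14.6% higher). DESeq2 called TRIM68 and TRIM24, 2 of 23, against 9.58% of all genes. TRIM68 (ENSSSCG00000014768) stood at 7.89, 9.85 and 5.25 FPKM in Wannanhua 1, 2 and 3, against 1.57, 1.68 and 2.16 FPKM in Yorkshire 1, 2 and 3. The lowest Wannanhua library thus lay above the highest Yorkshire library. The values rested on 231, 264 and 134 reads in Wannanhua 1, 2 and 3, against 39, 46 and 64 reads in Yorkshire 1, 2 and 3. The log2 fold change of TRIM68 came to 1.60 ± 0.24 (SE; limma adjusted p = 0.0295), with a 95% interval from 1.04 to 2.15. The call was lost without Wannanhua 1 (limma adjusted p = 0.114), Wannanhua 2 (0.111), Yorkshire 1 (0.0552), Yorkshire 2 (0.0806) or Yorkshire 3 (0.112), and with no filter on low values (0.0544), while the log2 fold change stayed between 1.42 and 2.02 under all 16 alternatives run.

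TRIM72 (ENSSSCG00000007757), the membrane repair protein, held 59.1% of the summed FPKM of the TRIM members. TRIM63, left out of that sum, averaged 259 FPKM over all libraries, above TRIM72 at 174. TRIM72 stood at 176, 176 and 200 FPKM in Wannanhua 1, 2 and 3, against 143, 186 and 161 FPKM in Yorkshire 1, 2 and 3. The breeds overlapped, with a 95% interval of the log2 fold change from -0.24 to 0.60. TRIM24 (ENSSSCG00000016518), a bromodomain cofactor of nuclear receptors that also marks p53, stood at 23.0, 30.1 and 13.1 FPKM in Wannanhua 1, 2 and 3, against 10.1, 9.00 and 6.34 FPKM in Yorkshire 1, 2 and 3. The breeds did not overlap, with Wannanhua 3 nearest to Yorkshire, and the log2 fold change of 1.23 ± 0.32 (SE) did not pass (limma adjusted p = 0.0824). It passed in limma without Wannanhua 3 and in DESeq2 (adjusted p = 0.0195). TRIM45 (ENSSSCG00000006732) averaged 23.6 ± 4.90 FPKM in Wannanhua and 14.3 ± 2.47 FPKM in Yorkshire, also without overlap (limma adjusted p = 0.132).

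TRIM55 (ENSSSCG00000006216), the sarcomere ligase MuRF2, stood at 17.1, 9.60 and 11.8 FPKM in Wannanhua 1, 2 and 3, against 12.1, 17.0 and 16.9 FPKM in Yorkshire 1, 2 and 3. The breeds overlapped, at a log2 fold change of -0.26 ± 0.25 (SE; limma adjusted p = 0.569). TRIM32 (ENSSSCG00000005501), mutated in a human limb-girdle muscular dystrophy, averaged 3.11 ± 0.756 FPKM in Wannanhua and 3.27 ± 0.225 FPKM in Yorkshire. TRIM27 (ENSSSCG00000001219) averaged 8.54 ± 0.805 and 6.81 ± 0.450 FPKM (limma adjusted p = 0.343). TRIM37 (ENSSSCG00000023727), named after its values were seen and mutated in a human growth disorder, averaged 9.14 ± 3.31 and 5.30 ± 0.795 FPKM, with overlap.

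TRIM25 (ENSSSCG00000017614), which ubiquitinates the RNA sensor RIG-I in human cells, stood at 0.328, 1.15 and 0.752 FPKM in Wannanhua 1, 2 and 3, against 0.357, 0.698 and 0.642 FPKM in Yorkshire 1, 2 and 3, and fell under the filter on 3 to 10 reads. TRIM21 and TRIM47 were singled out after their values were seen. TRIM21, the antibody receptor of the cytosol, averaged 1.33 ± 0.346 FPKM in Wannanhua and 1.98 ± 0.337 FPKM in Yorkshire, with overlap. TRIM65 (ENSSSCG00000017195), an activator of the RNA sensor MDA5, averaged 1.71 ± 0.312 and 0.937 ± 0.193 FPKM without overlap (limma adjusted p = 0.176). TRIM47, its direct neighbour in the RefSeq annotation of build Sscrofa11.1, did overlap, at 3.51 ± 2.11 and 2.65 ± 0.735 FPKM.

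The 24 members under the filter averaged between 0.01 and 0.91 FPKM. In 11 of them no library reached 0.2 FPKM, and 8 were listed at 0 in at least 1 library, while no tested member was. KLHL1 and TRIM9, which are known from neurons, and FBXO2, known for sugar-marked proteins in brain, were among the 11 and were picked after their values were seen. Of the 85 tested members, 75 reached 1 FPKM in all 6 libraries, and the other 10 each reached it in at least 1 library of both breeds.

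Summed over the members of a family with a matched row, and with FBXO32 and TRIM63 left out, levels separated the breeds for the TRIM genes alone. Their sum was 318, 337 and 315 FPKM in Wannanhua 1, 2 and 3, against 234, 294 and 262 FPKM in Yorkshire 1, 2 and 3. TRIM72 took the greatest share of it, though its own levels overlapped between breeds. The FBXO sum was 315, 332 and 329 FPKM in Wannanhua 1, 2 and 3, against 263, 332 and 330 FPKM in Yorkshire 1, 2 and 3. FBXO32, left out of it, averaged 169 ± 68.0 FPKM in Wannanhua and 29.3 ± 8.17 FPKM in Yorkshire, without overlap. With FBXO32 added, the FBXO sum would separate the breeds too. The KLHL sum was 355, 355 and 496 FPKM in Wannanhua 1, 2 and 3, against 257, 417 and 404 FPKM in Yorkshire 1, 2 and 3. The ASB sum was 435, 564 and 807 FPKM in Wannanhua 1, 2 and 3, against 412, 480 and 479 FPKM in Yorkshire 1, 2 and 3. ASB2 held 313 FPKM of the highest sum, in Wannanhua 3. The FBXL and FBXW sums stood between 61.1 and 102 FPKM in every library.

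**Figure D4:**
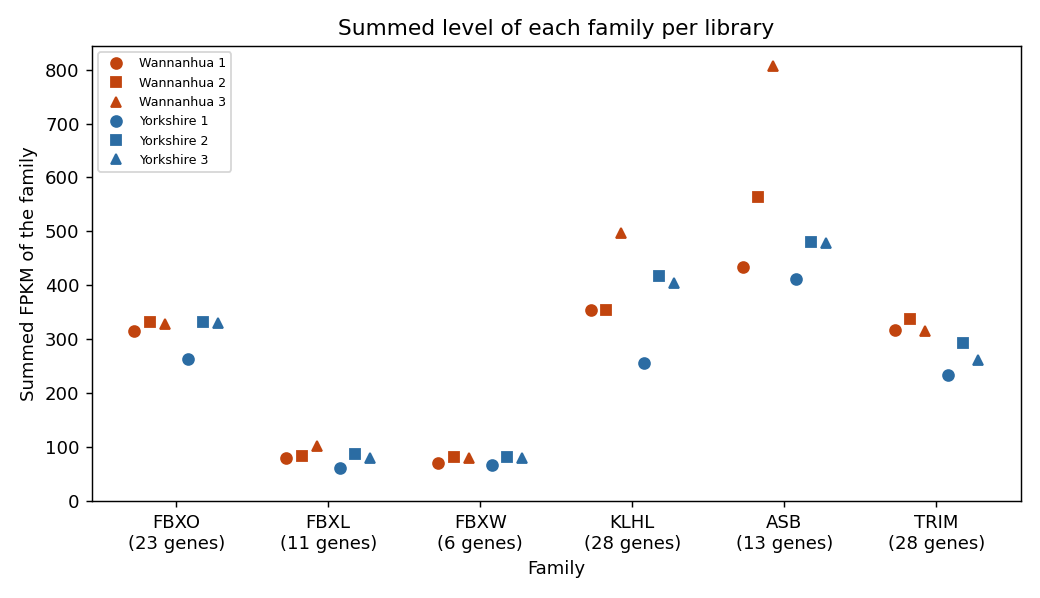
Summed FPKM of the members of each family, from 0, in each library, Wannanhua (red) left of Yorkshire (blue). The breeds overlap in 5 of the families, Yorkshire 1 is the lowest library in each family, and the ASB sum of Wannanhua 3 reaches 807 FPKM.

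Yorkshire 1 was low across many members. It was the lowest of the 6 libraries for 35 of the 85 tested members, or 41.2%, against 36.3% of all tested genes. Wannanhua 2 was the highest for 28, or 32.9%, against 27.0%. Wannanhua 3 was the highest for 20, or 23.5%, against 22.4%. Without Wannanhua 3 and Yorkshire 1, a setting chosen after seeing the data, limma called 7 of 84 members (8.33%, against 8.73% of all genes tested in that fit). These were TRIM68, TRIM24, TRIM45, KLHL24 and ASB18, higher in Wannanhua, and ASB1 and FBXW11, lower, against 4.68% of all genes called higher and 4.05% lower.

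**Figure D5:**
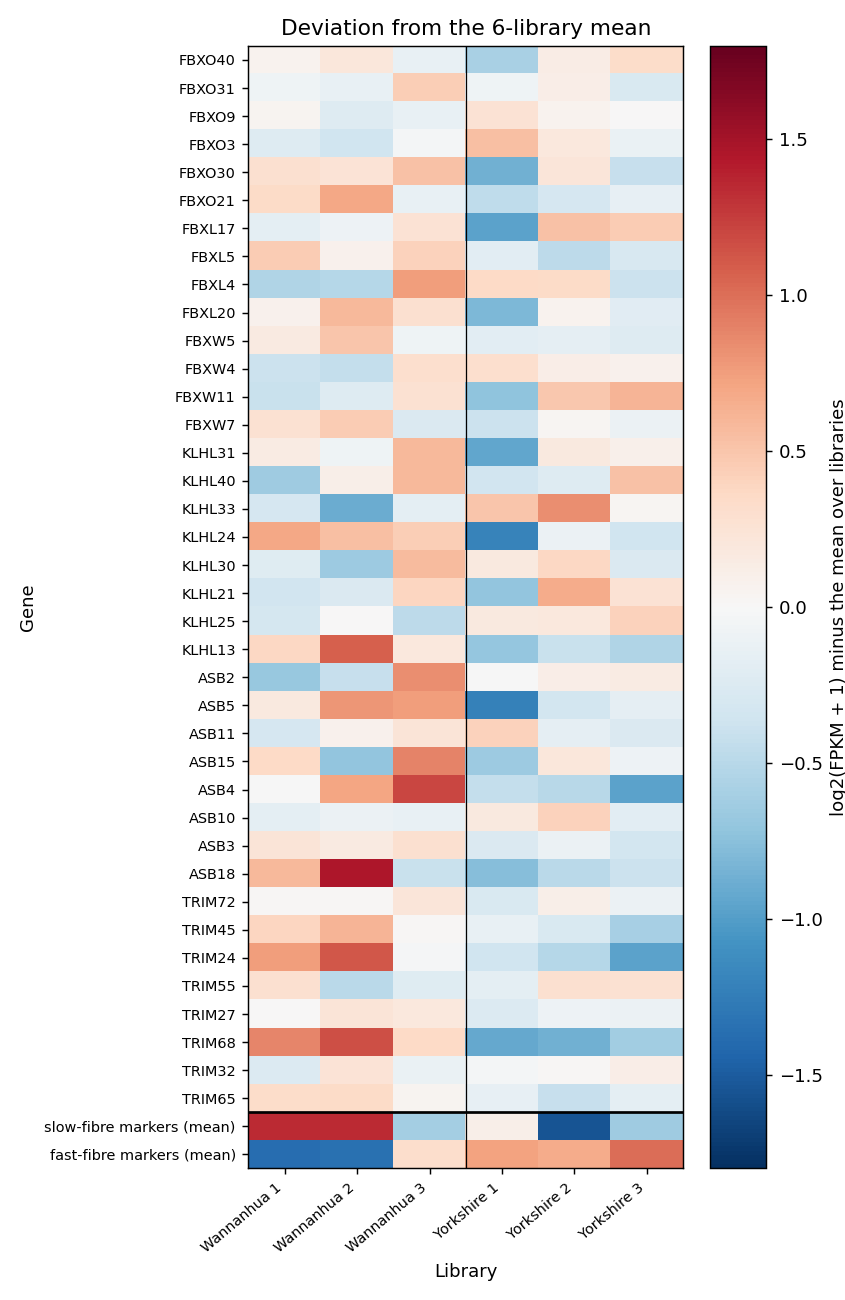
Deviation of log2(FPKM + 1) from its mean over the 6 libraries for the 38 tested members that are named by rule, with the mean of the slow-fibre and fast-fibre markers in the last rows. Yorkshire 1 is blue in many rows, and Wannanhua 3 parts from Wannanhua 1 and 2 in ASB18, FBXL4, ASB2 and both marker rows.

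Receptors plug into shared parts. Of 52 symbols listed for scaffolds, adaptors, RING proteins, neddylation, the COP9 signalosome, exchange factors and conjugating enzymes, 31 had a row and 30 were tested. Limma called 1 (3.33%, against 3.05% of all tested genes), and the median log2 fold change was 0.02. Of these 30, the breeds did not overlap in 3 higher in Wannanhua, against 20.3% of all tested genes. They did not overlap in 5 lower in Wannanhua, UBE2D4 among the 5, against 9.63% of all tested genes. CUL1 stood at 27.3, 26.0 and 30.7 FPKM in Wannanhua 1, 2 and 3, against 21.8, 21.3 and 22.7 FPKM in Yorkshire 1, 2 and 3, without overlap (limma adjusted p = 0.253). ELOB, the elongin B that ASB proteins bind, stood at 214, 208 and 260 FPKM in Wannanhua 1, 2 and 3, against 454, 311 and 327 FPKM in Yorkshire 1, 2 and 3, also without overlap (limma adjusted p = 0.135). COPS5 and COPS7A, subunits of the COP9 signalosome that strips NEDD8 from cullins, averaged 69.1 ± 8.80 and 29.1 ± 8.85 FPKM in Wannanhua, against 90.3 ± 8.37 and 43.8 ± 2.52 FPKM in Yorkshire, without overlap and short of the threshold. ELOB, COPS5 and COPS7A were picked after their values were seen. ELOC, the elongin C, averaged 104 ± 14.7 FPKM in Wannanhua and 82.7 ± 12.4 FPKM in Yorkshire, with overlap. The other signalosome subunits with a row, COPS2, COPS3, COPS4 and COPS8, overlapped between breeds. The adaptor DDB1 was higher in Wannanhua without overlap, at 40.6 ± 1.77 against 30.2 ± 4.14 FPKM (limma adjusted p = 0.202). CUL3 averaged 36.8 ± 7.54 FPKM in Wannanhua and 36.0 ± 4.71 FPKM in Yorkshire. CUL5 averaged 44.3 ± 3.18 and 40.4 ± 16.2 FPKM, and its RING partner RNF7 55.0 ± 4.55 and 54.5 ± 9.52 FPKM. SKP1 and RBX1 were not analysed here.

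The listed gene past the threshold was UBE2D4 (ENSSSCG00000016722), a conjugating enzyme that works with many RING ligases. It stood at 106, 91.0 and 128 FPKM in Wannanhua 1, 2 and 3, against 220, 234 and 250 FPKM in Yorkshire 1, 2 and 3. Every Wannanhua library lay under every Yorkshire library, with a log2 fold change of -1.12 ± 0.19 (SE; limma adjusted p = 0.0363). The call was lost without Wannanhua 1 or 2 (limma adjusted p = 0.139 and 0.136), without Yorkshire 1, 2 or 3 (0.0572, 0.105 and 0.145) and with no filter on low values (0.0579), while the log2 fold change stayed between -1.29 and -1.0 under all 16 alternatives run. UBE2D genes are close paralogs, and the sources used here do not say how reads matching several of them were counted.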

How the data were processed

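Total RNA was poly-A selected and made into paired-end libraries without strand marking, per the labels' protocols, so reads of a gene and an antisense partner could not be told apart. CASAVA 1.7, TopHat2 2.0.6 and build Sscrofa10.2 are named in the submitters' processing notes, with counter and annotation not given in the sources used here. FPKM as the authors deposited them entered the main test. Their scaled counts, deposited beside, are a signal, namely whole reads over a factor per library. The step of each library was started at the most frequent value near 1 and refined by least squares on larger values. Between 99.71% and 99.82% of values above 0 were whole multiples of this step, within 0.01 of a read or a relative 1e-05. Dividing by the step gave the reads. The library values below 1 read (1 to 3 each) mislead a search from the smallest value, so these reads serve alternatives only.

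Symbols matched 10384 of 17627 identifiers (58.9%) from a table of unstated release. Members and lists were chosen with earlier results of these data known. The test was limma 3.58.1 in R 4.3.3 (trend and robust settings, breed as the only term) on log2(FPKM + 1), for genes at 1 FPKM or more in 3 or more libraries. It leaves out 7 abundant genes listed at 0 in a library, none a member. P-values were adjusted by Benjamini-Hochberg at 0.05. edgeR 4.0.16 and DESeq2 1.42.0 on recovered reads, other scalings, filters and pseudocounts, a replicate block and each library left out were alternatives. The scripts were tested on simulated data.

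Named members are those past the threshold, the 3 most abundant of each family, up to 2 further per family and direction with the smallest p among those without overlap, and 40 muscle receptors chosen by role, of which 12 had no matched row and were not analysed here. Replicates differed by more than sampling noise (chi-square per degree of freedom of 34.6 or more).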

Additional observations from a re-analysis of the deposited data

How the results depend on the processing

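Of 38 tested named members, 12 changed sign under some alternative, in none past the threshold. ASB11, FBXO40 and KLHL40 stood at -0.15, -0.070 and -0.016 on the log2 scale in edgeR and at -0.16, -0.081 and -0.024 in DESeq2, and ASB11 at -0.012 after quantile normalization. Without Wannanhua 3 and Yorkshire 1, a setting added after seeing the data, ASB15, FBXO40, FBXO31, KLHL31 and KLHL40 stood at -0.24, -0.092, -0.030, -0.10 and -0.42. With single libraries left out the ranges were -0.64 to 0.12 for ASB2, -0.50 to 0.25 for FBXL17, -0.63 to 0.015 for FBXL4, -0.21 to 0.034 for TRIM32, -0.12 to 0.21 for ASB11, -0.25 to 0.36 for KLHL40, -0.54 to 0.075 for KLHL30, -0.032 to 0.26 for FBXO31, -0.18 to 0.27 for FBXO40 and -0.54 to 0.14 for KLHL21. The cause was not tested.

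The 1 member called became 9 in DESeq2 (7 higher and 2 lower, of which 4 KLHL, 3 ASB and 2 TRIM). It became 0 with no filter, TRIM included. Without Wannanhua 3 and Yorkshire 1 it became 7 (5 higher and 2 lower, of which 1 FBXW, 1 KLHL, 2 ASB and 3 TRIM). Over all genes, calls were 360 of 11791 in the main fit, 1251 of 13065 in DESeq2 and 69 of 17620 with no filter. Without Wannanhua 3 and Yorkshire 1 they were 988 of 11314. With single libraries left out the count of called members ran from 0 to 3, all higher, with 0 to 2 TRIM and 0 to 1 ASB members. Calls over all genes then ran from 11 without Yorkshire 3 to 504 without Wannanhua 3, against 360. The 3, without Wannanhua 3, were TRIM68, TRIM24 and ASB18. The scaffold and cofactor list had 0 calls with no filter, 2 without Wannanhua 3 and Yorkshire 1, and 0 to 1 with single libraries left out.

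Medians of the log2 fold change also depended on the setting, and several of those that follow lie within the ranges with single libraries left out. In DESeq2 they were -0.0038 over all members, -0.081 for FBXO, 0.34 for ASB and -0.16 for the scaffold list. In edgeR they were -0.070 for FBXO, 0.35 for ASB and -0.15 for the scaffold list. With a filter at 5 FPKM, which tests fewer members, they were 0.030 for FBXW, 0.0016 for ASB and 0.45 for TRIM, and with no filter -0.0066 for FBXW and 0.29 for ASB. After quantile normalization they were -0.012 over all members, -0.043 for FBXO and 0.082 for FBXL. Without Wannanhua 3 and Yorkshire 1 they were -0.0066 for FBXO, 0.12 for FBXW, 0.032 for ASB and -0.12 for the scaffold list. With single libraries left out they ran from 0.0028 to 0.15 for FBXO, 0.056 to 0.29 for FBXL, -0.19 to 0.0036 for FBXW, -0.0021 to 0.21 for ASB and -0.094 to 0.12 for the scaffold list.

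With the replicate number as a block, TRIM68 kept its call (limma adjusted p = 0.0462), the scaffold list had 0 calls (UBE2D4 at 0.0571), and 205 genes were called in all. Deviations of same-numbered libraries correlated at 0.10, -0.01 and 0.11. With 1 value per number, these cannot show whether same-numbered libraries shared a step of handling, and no label pairs them. Limma without trend and robust settings, a pseudocount of 0.1 and keeping the abundant genes with a listed 0 changed no count of calls among the members. Low counts limit the 24 members under the filter and 7 of the 85 tested, KLHL13, ASB18 and TRIM65 among them, which had under 25 reads in at least 1 library.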
